A study of Mus musculus with 26 samples.

Results

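Chromatin accessibility was measured by ATAC-seq, which counts insertions of a transposase into open DNA, around 9 genes of lipid mediator signalling in Kupffer cells, macrophages that reside in the mouse liver. The genes were Ptgs1, Ptgs2, Ptges, Ptger2, Ptger4, Slco2a1, Alox5, Alox5ap and Ptafr, and a peak belonged to one of them where the deposited table gave it that gene name, which is the gene with the nearest annotated start. This rule found 109 of the 96381 peaks of the inbred table, with 26 for Ptgs1, 20 for Ptger2, 16 for Alox5ap, 15 each for Ptger4 and Ptafr, 10 for Alox5, 4 for Slco2a1, 3 for Ptges and 0 for Ptgs2. In the table of F1 hybrids it found 216 of 217456 peaks, 2 of them for Ptgs2.

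The samples were Kupffer cells sorted from liver non-parenchymal cells of male mice of 8 to 12 weeks. Control libraries came from A/J (n = 4), BALB/cJ (n = 4), C57BL/6J (n = 4) and CB6F1/J mice (n = 4), the F1 hybrid of BALB/cJ and C57BL/6J. LPS libraries came from C57BL/6J (n = 3), BALB/cJ (n = 2) and CB6F1/J mice (n = 5) given 0.1 mg/kg of E. coli lipopolysaccharide, a bacterial Toll-like receptor 4 ligand, into the peritoneum 2 h before isolation. All mice, controls included, had been fasted overnight, the controls were not injected, and flavopiridol, an inhibitor of transcription, was present in every digestion. A/J had no LPS group. The labels number the replicates without tying each to an animal, so p-values describe the spread between these libraries.

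Prostaglandins are made from arachidonic acid. The cyclooxygenases Ptgs1 (COX-1, in most cells) and Ptgs2 (COX-2, induced by inflammatory signals) make prostaglandin H2, which Ptges, the inducible microsomal synthase, turns into prostaglandin E2. Macrophages sense prostaglandin E2 through the cAMP-raising receptors Ptger2 (EP2) and Ptger4 (EP4), and Slco2a1 carries prostaglandins into cells for degradation. Alox5 with its activating protein Alox5ap (FLAP) starts leukotriene synthesis from the same fatty acid, and Ptafr is the receptor for platelet-activating factor, a phospholipid mediator.

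The sequences shown are the member peak of each gene with the smallest adjusted p in a comparison, the called promoter peak of Ptafr and the promoter peak of Ptgs2. They are the plus strand of GRCm38 (mm10), which is the C57BL/6J sequence. Capitals mark matches to any of 6 motifs searched on both strands: AP-1 (TGANTCA), PU.1 (GAGGAAGT), the core of the cAMP response element, CRE (TGACG), C/EBP (TTGCNNAA), IRF (GAAANNGAA) and κB. Where matches touch, the capitals run together.
Ptgs1, 7891 bp upstream, chr2:36222435-36222635: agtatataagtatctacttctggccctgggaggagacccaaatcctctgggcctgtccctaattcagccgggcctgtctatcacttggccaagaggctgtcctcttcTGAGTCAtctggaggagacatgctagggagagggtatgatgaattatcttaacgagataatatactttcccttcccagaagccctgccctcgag
Ptges, 21935 bp upstream of the table's start, chr2:30925132-30925332: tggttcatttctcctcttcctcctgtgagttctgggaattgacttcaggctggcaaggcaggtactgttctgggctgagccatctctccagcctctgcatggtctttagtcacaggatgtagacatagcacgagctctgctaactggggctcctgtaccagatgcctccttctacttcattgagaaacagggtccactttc
Slco2a1, 14510 bp upstream of the table's start, chr9:102993879-102994079: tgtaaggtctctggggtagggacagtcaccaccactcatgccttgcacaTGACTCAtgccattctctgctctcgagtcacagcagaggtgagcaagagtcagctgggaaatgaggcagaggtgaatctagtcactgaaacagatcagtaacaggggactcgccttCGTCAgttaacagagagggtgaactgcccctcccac
Ptger2, 53284 bp downstream, chr14:45041295-45041495: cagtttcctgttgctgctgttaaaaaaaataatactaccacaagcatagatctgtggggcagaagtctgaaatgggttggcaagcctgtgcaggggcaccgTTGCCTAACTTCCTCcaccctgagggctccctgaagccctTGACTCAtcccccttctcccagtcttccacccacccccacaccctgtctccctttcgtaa
Ptger4, 58401 bp upstream, chr15:5302488-5302688: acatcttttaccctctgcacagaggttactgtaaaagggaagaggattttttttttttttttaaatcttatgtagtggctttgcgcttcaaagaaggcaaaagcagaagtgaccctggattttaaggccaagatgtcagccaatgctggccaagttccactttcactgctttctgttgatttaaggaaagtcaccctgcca
Alox5, 5156 bp downstream, chr6:116455922-116456122: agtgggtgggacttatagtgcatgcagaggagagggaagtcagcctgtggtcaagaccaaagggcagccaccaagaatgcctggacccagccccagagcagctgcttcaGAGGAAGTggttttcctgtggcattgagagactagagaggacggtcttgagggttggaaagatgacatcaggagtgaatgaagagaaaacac
Alox5ap, 2712 bp downstream, chr5:149267616-149267816: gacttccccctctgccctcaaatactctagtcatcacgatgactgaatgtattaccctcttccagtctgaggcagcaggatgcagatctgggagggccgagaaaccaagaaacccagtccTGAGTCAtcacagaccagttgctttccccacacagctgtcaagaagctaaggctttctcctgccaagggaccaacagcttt
Ptafr, 2811 bp upstream, chr4:132561156-132561356: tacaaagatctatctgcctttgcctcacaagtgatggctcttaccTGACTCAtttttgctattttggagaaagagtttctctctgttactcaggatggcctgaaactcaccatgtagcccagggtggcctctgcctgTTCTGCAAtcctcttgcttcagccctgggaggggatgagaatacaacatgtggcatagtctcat
Ptafr, the first 28 bases of the peak 72 bp downstream, chr4:132564039-132564066: ctttgcttgctctgcaggaaacctctgc
Ptgs2 promoter, chr1:150099807-150100007: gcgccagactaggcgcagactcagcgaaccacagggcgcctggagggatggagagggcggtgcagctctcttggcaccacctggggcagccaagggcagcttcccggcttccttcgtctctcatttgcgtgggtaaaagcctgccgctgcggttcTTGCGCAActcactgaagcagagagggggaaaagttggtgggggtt

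Of these sequences, those of Ptgs1, Slco2a1, Ptger2, Alox5ap and the Ptafr peak 2811 bp upstream held 1 AP-1 match each. Ptger2 also held a C/EBP match touching a PU.1 match, Slco2a1 a CRE match, Ptafr 2811 bp upstream and the Ptgs2 promoter a C/EBP match each, and Alox5 a PU.1 match. The Ptges and Ptger4 sequences held no match to these letters. Over all 96238 nuclear peaks of the same length, 14.3% held an AP-1 match, 11.6% C/EBP, 13.4% CRE, 8.61% PU.1, 8.89% IRF and 4.85% κB. Among the 109 member peaks the numbers with a match were 19, 20, 8, 13, 9 and 5, in the same order. A match is a description of letters, not evidence of a bound factor.

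Each level in the text is a normalised count, the tags in 1000 bp centred on the 200-bp peak divided by the relative effective library size, so that levels of different peaks refer to the same length. Values are listed by replicate number. Comparisons are log2 ratios from edgeR's quasi-likelihood test, with p adjusted over all peaks tested. The SE beside each ratio was derived from that test, as the size of the ratio divided by the square root of its F statistic. A peak is called where the adjusted p was under 0.05 and the log2 ratio passed 1 in either direction. Because 44095 of the inbred windows overlap another, neighbouring peaks can count the same tags. Such pairs included 17200 and 17853 bp downstream of Ptger2, 17728 and 17259 bp upstream of Alox5ap, and 1997 and 2712 bp downstream of Alox5ap. Others were 20971 and 21462 bp, and 34 and 1028 bp, downstream of Alox5, and 563 bp upstream and 72 bp downstream of Ptafr. Some other called peaks share tags with peaks not described here.

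One library stood apart. C57BL/6J LPS replicate 1 had a median log2 ratio to the C57BL/6J controls of 0.63 over the 15164 peaks called higher in BALB/cJ, against 1.504 and 1.65 in replicates 2 and 3. Over the 21 member peaks among them it was 0.48, against 2.47 and 1.98. C57BL/6J responses are therefore given with and without it. Inbred libraries held 2.08 to 7.54 M tags in nuclear peaks, except BALB/cJ control replicate 4 with 47.2 M. Control values came in steps of 0.5 tags and LPS values in whole tags, file headers give different dates for control and LPS libraries, and C57BL/6J and BALB/cJ LPS libraries also differ in date. LPS and these differences cannot be told apart, nor can strain and date under LPS, whereas the hybrid LPS libraries came from both LPS dates. In bulk cells, a change in the accessibility of each cell and a change in the cells sorted cannot be told apart either. Promoter peaks of all 8 Kupffer cell markers were found, with a summed level of 540 to 709 in inbred controls and 324 to 478 after LPS. Monocyte markers (3 of 6 with a promoter peak, none for Ccr2, Ly6c2 or Chil3) summed to 21.5 to 27.3 in C57BL/6J controls and 36.6 to 50.1 after LPS, and to 31.6 to 40.3 and 70.4 to 77.5 in BALB/cJ. Neutrophil markers (3 of 7, none for S100a9, Ly6g, Cxcr2 or Retnlg) summed to 133 to 178 in C57BL/6J controls and 97.6 to 117 after LPS. In BALB/cJ they summed to 125 to 195 and 92.3 to 101, and in A/J controls to 90.8 to 182. Endothelial markers (2 of 5) summed to 18.5 to 80.5 and 40.5 to 52.3 in BALB/cJ and to 16.05 to 19.9 and 22.5 to 40.6 in C57BL/6J. The 1 of 5 hepatocyte markers with a peak held 4.81 to 8.70 in C57BL/6J controls and 11.2 to 20.7 after LPS. In BALB/cJ it held 6.63 to 9.40 and 6.97 to 14.9, and in A/J controls 10.2 to 23.1. No lymphocyte or stellate cell marker had a promoter peak. The part of these cells in the results was not tested.

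The table called 65 of the 109 member peaks intergenic, 30 intronic, 8 promoter, 3 exonic, 2 in a 5′ UTR and 1 at a transcription end. In GENCODE, 25 of the 65 are centred inside an annotated gene, 6 of them inside a protein-coding gene, and 40 are outside. The 3 Ptges peaks, intergenic in the table, lie within the GENCODE Ptges gene (chr2:30889471-30929863, minus strand), 2409, 4631 and 16574 bp from its start. The Slco2a1 peak 19696 bp upstream of the table's start is 81 bp from the GENCODE start (chr9:102988712-103096002), and the one 14510 bp upstream is 5267 bp inside the gene. The authors' lists of reproducible peaks held 69 (A/J), 90 (BALB/cJ) and 70 (C57BL/6J) of the 109 in controls, and 69 (C57BL/6J) and 68 (BALB/cJ) after LPS. These are 63.3%, 82.6%, 64.2%, 63.3% and 62.4% of the member peaks, beside 57.7%, 80.5%, 62.4%, 60.5% and 54.5% of all 96238 peaks. All 5 lists shared 41 of them (37.6%, beside 34.8% of all peaks), 11 appeared in an LPS list and no control list (10.1% beside 11.2%), and 28 in a control list and no LPS list (25.7% beside 31.0%). The Ptges peaks were in no control list, whereas 3 were in the C57BL/6J and 2 in the BALB/cJ LPS list. The 11 peaks in an LPS list and no control list entered the merged set only through LPS libraries. Low control counts and a gain at them are therefore partly fixed by that selection. Besides Ptges, they include the peaks 2811 bp upstream of Ptafr, 14510 bp upstream of Slco2a1 and 7891 bp upstream of Ptgs1. They also include those 17200 and 53284 bp downstream of Ptger2 and 91850 bp upstream of Ptger4. Likewise, the 28 peaks in a control list and no LPS list entered only through control libraries. Higher control counts and a loss at those are partly fixed in the same way. Peaks called lower among the 28 are those 1028 bp downstream of Alox5 and 9783 bp downstream of Alox5ap.

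After LPS, peaks called higher in an inbred strain belonged to 7 of the 8 member genes with an inbred peak, the exception being Alox5. Most of these genes hold many peaks, and how many other genes with as many peaks had a gain is not given here. In BALB/cJ, 21 of the 109 member peaks were called higher (19.3%, against 16.2% of all peaks tested) and 7 lower (6.42% against 11.3%). In C57BL/6J, 17 of 108 were called higher (15.7% against 12.3%) and 5 lower (4.63% against 8.07%). Without C57BL/6J LPS replicate 1 these counts became 21 and 11, against 14.9% and 10% of all peaks. The shares of member peaks called higher were thus near those of all peaks, and the median member ratio was 0.27 in BALB/cJ against −0.07 over all peaks, and 0.00 against −0.03 in C57BL/6J. All 21 BALB/cJ gains had LPS libraries above every control, as did 10 of the 17 C57BL/6J gains, beside 98.4% and 71.6% of all peaks called higher in the same comparisons. In C57BL/6J, replicate 1 lay at or below the highest control in 10 of the 21 BALB/cJ gains, and another LPS library did so in 3. The same counts over all peaks called higher in BALB/cJ are not given here.

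The responses of both strains had the same sign at each of the 32 peaks called in either. Both strains called 15 gains, which are 88.2% of those of C57BL/6J and 71.4% of those of BALB/cJ, and 3 losses, 60% and 42.9%. Over all peaks, 11323 were called higher in C57BL/6J, 15164 in BALB/cJ and 17772 in either, and 7421, 10584 and 13407 lower, so many calls are shared there too. The share of all called peaks with the same sign in both strains is not given here. The strain difference in response was called at 0 of 109 member peaks by edgeR and by DESeq2, against 0.145% of all peaks called by edgeR. By edgeR, 6 member peaks had an unadjusted p under 0.05, and the share of all peaks at that threshold is not given here. The hybrid table held 27 of the 32 peaks. At 26 of them the mean of the hybrid LPS libraries of the first date and that of the second date lay on the same side of the control mean, and at 25 that was the direction of the BALB/cJ ratio. The exceptions were the Alox5ap peaks 21151 bp downstream, where the dates fell on opposite sides, and 1997 bp downstream, where both means were above the controls. The same counts by date over all peaks are not given here.

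**Figure D1:**
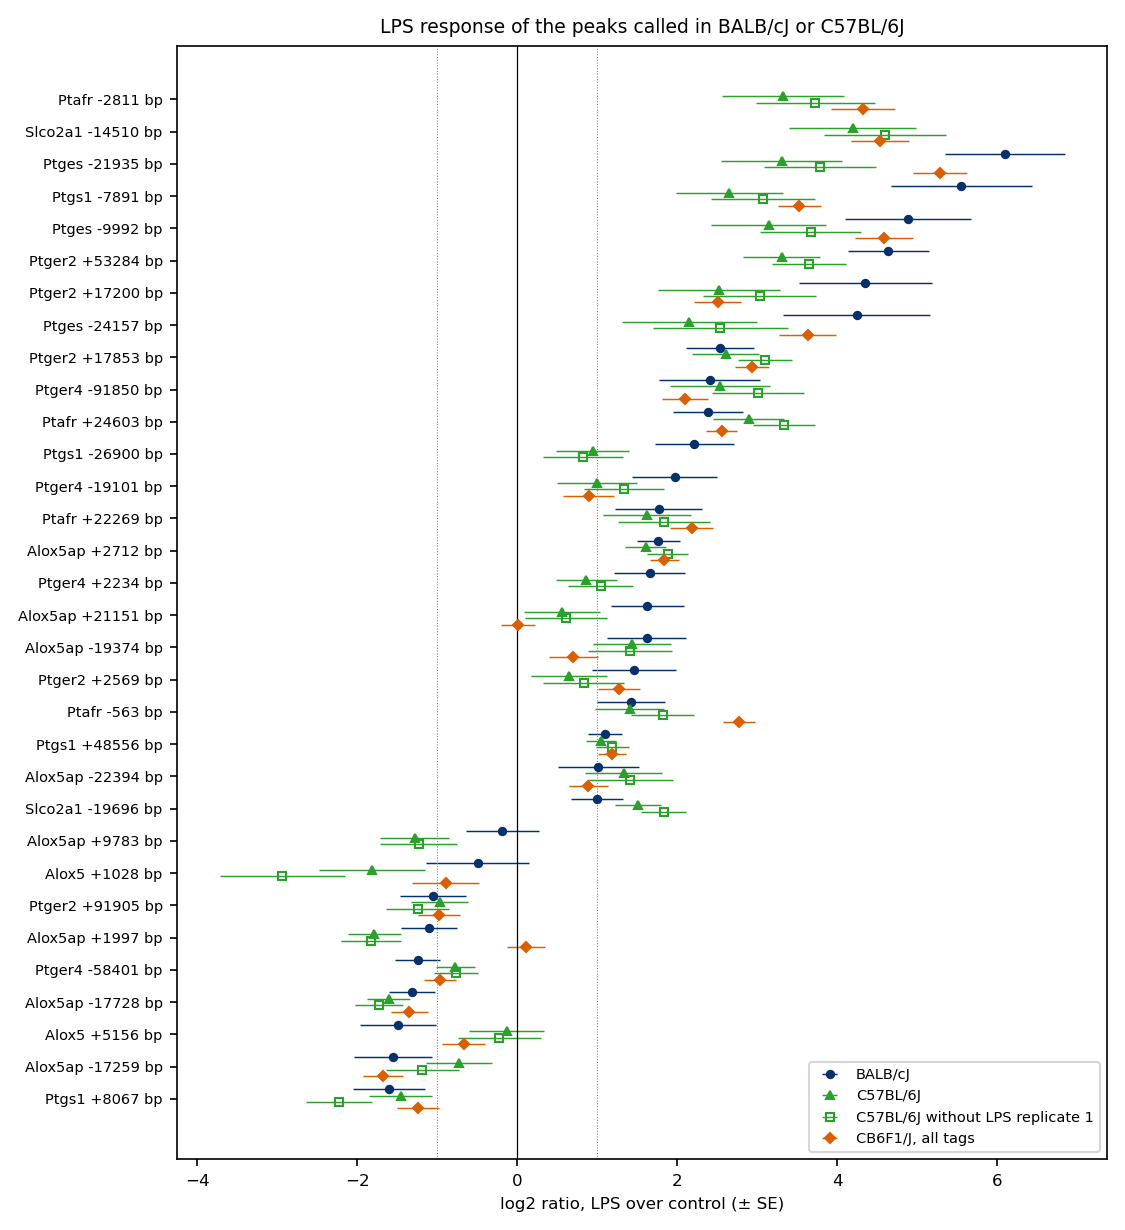
The 32 member peaks called in either strain, each with the log2 ratio of LPS over control (points, ± SE) in BALB/cJ, C57BL/6J, C57BL/6J without LPS replicate 1, and CB6F1/J from all tags. Labels give the gene and the table's distance from its start (negative is upstream), dotted lines mark a log2 ratio of 1 in either direction, and the Ptafr and Slco2a1 peaks at the top have no BALB/cJ point because all 4 controls held 0 tags.

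Ptges, the inducible prostaglandin E2 synthase, had few tags in controls at its 3 inbred peaks and gained at all 3 in BALB/cJ and at 2 in C57BL/6J. All 3 peaks were listed only after LPS, so low controls and a gain are partly fixed by how the peaks were selected. The peak 21935 bp upstream of the table's start (chr2:30925132-30925332, sequence above) held normalised counts of 0.580, 1.60, 0 and 5.32 in C57BL/6J controls and 2.81, 29.7 and 15.9 after LPS. BALB/cJ held 0, 0, 0 and 1.01 in controls against 52.3 and 53.6 after LPS, and A/J controls 3.08, 4.38, 0 and 4.69. Both BALB/cJ LPS libraries and C57BL/6J LPS replicates 2 and 3 stood above all controls of their strain, whereas C57BL/6J LPS replicate 1 lay within its controls. LPS gave a log2 ratio of 6.10 ± 0.75 (SE, adjusted p = 2.19e-07) in BALB/cJ and 3.30 ± 0.75 (adjusted p = 0.00128) in C57BL/6J, and 3.78 ± 0.70 (adjusted p = 8.79e-05) without C57BL/6J LPS replicate 1. Leaving out single libraries moved the BALB/cJ ratio from 5.91 without BALB/cJ control replicate 2 to 8.59 without BALB/cJ control replicate 4 and that of C57BL/6J from 2.59 without C57BL/6J LPS replicate 2 to 4.54 without C57BL/6J control replicate 4.

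The Ptges peak 9992 bp upstream (chr2:30913189-30913389) held 3.48, 4.81, 1.30 and 0 in C57BL/6J controls and 1.404, 33.96 and 30.3 after LPS, and 0, 2.93, 2.68 and 0.645 in controls against 32.2 and 39.6 after LPS in BALB/cJ. Ratios were 4.88 ± 0.79 (adjusted p = 1.35e-05) in BALB/cJ and 3.14 ± 0.72 (adjusted p = 0.00136) in C57BL/6J. At the peak 24157 bp upstream (chr2:30927354-30927554) values were 2.64, 1.95, 1.34 and 0.184 in controls against 13.1 and 23.7 after LPS in BALB/cJ, with a log2 ratio of 4.24 ± 0.92 (SE, adjusted p = 5.22e-04). C57BL/6J held 2.90, 1.60, 0 and 2.66 there in controls and 2.81, 14.4 and 8.76 after LPS, with a ratio that did not pass (2.15 ± 0.84, adjusted p = 0.0554) until replicate 1 was left out (2.54 ± 0.84, adjusted p = 0.0207). Differences between the strains' responses at the 3 peaks ran from −2.79 to −1.74, C57BL/6J minus BALB/cJ, with no adjusted p under 0.05. Hybrids gained there too. At the counterpart of the 21935-bp peak the controls held 3.99, 5.87, 1.83 and 14.4 and the LPS libraries 265, 188, 271, 220.1 and 181, with a log2 ratio of 5.28 ± 0.34 (SE, adjusted p = 4.03e-14), and 5 of 8 hybrid Ptges peaks were called higher and 0 lower, where 16.3% of all hybrid peaks tested were called higher and 10.7% lower.

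Slco2a1, the prostaglandin uptake carrier, gained accessibility within the gene. The peak 14510 bp upstream of the table's start (chr9:102993879-102994079) had 0 tags in all 4 BALB/cJ controls and 28.7 and 33.4 after LPS, at least 139-fold higher against a floor of 3 tags over the control group. C57BL/6J held 2.32, 0, 0 and 0 in controls and 5.62, 21.2 and 27.9 after LPS, and A/J controls 1.54, 1.09, 0 and 0. The C57BL/6J ratio was 4.19 ± 0.79 (adjusted p = 2.09e-04). Its value moved from 3.81 without C57BL/6J LPS replicate 3 to 7.82 without C57BL/6J control replicate 1, since C57BL/6J control replicate 1 was the only library of its group with a tag. Hybrid controls held 1.33 to 13.2 and hybrid LPS libraries 132 to 189, with a log2 ratio of 4.53 ± 0.36 (SE, adjusted p = 4.39e-12).

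At the Slco2a1 peak 81 bp from the GENCODE start (chr9:102988693-102988893), C57BL/6J held 53.9, 44.9, 54.6 and 33.2 in controls and 68.8, 153 and 175 after LPS, and BALB/cJ 44.8, 33.2, 34.9 and 46.4 in controls against 65.3 and 95.9 after LPS. The C57BL/6J groups gave a log2 ratio of 1.503 ± 0.29 (SE, adjusted p = 2.03e-04), a call kept without each library in turn. BALB/cJ gave 0.99 ± 0.32 (adjusted p = 0.0164), just short of a log2 ratio of 1. No hybrid peak covered enough of it to be matched. The nearest in name, 19806 bp upstream, rose by 2.16 ± 0.22 (adjusted p = 1.17e-09) in hybrids, where 5 of 11 Slco2a1 peaks were called higher and 1 lower. Of all hybrid peaks tested, 16.3% were called higher and 10.7% lower.

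Ptgs1, the constitutive cyclooxygenase, gained and lost accessibility at separate peaks. The peak 7891 bp upstream (chr2:36222435-36222635) held 2.64, 0.975, 0 and 0.0921 in BALB/cJ controls and 20.9 and 24.6 after LPS, and 2.32, 8.02, 1.30 and 3.99 in controls against 7.02, 33.1 and 26.3 after LPS in C57BL/6J. Controls of both strains held few tags there, and C57BL/6J LPS replicate 1 lay among its controls. LPS gave a log2 ratio of 5.54 ± 0.88 (SE, adjusted p = 1.07e-05) in BALB/cJ (from 4.11 without BALB/cJ control replicate 4 to 6.46 without BALB/cJ control replicate 1), 2.65 ± 0.67 (adjusted p = 0.00324) in C57BL/6J and 3.52 ± 0.27 (adjusted p = 2.30e-12) in hybrids. In contrast, the intronic peak 8067 bp downstream (chr2:36238393-36238593, intron 5 of 10) fell. It held 62.0, 56.6, 130.2 and 124 in BALB/cJ controls and 26.1 and 36.1 after LPS, and 71.9, 62.6, 124 and 128 in controls against 71.6, 30.6 and 9.56 after LPS in C57BL/6J. Ratios were −1.60 ± 0.45 (adjusted p = 0.00573) in BALB/cJ, −1.46 ± 0.39 (adjusted p = 0.00561) in C57BL/6J, −2.23 ± 0.41 (adjusted p = 8.12e-05) without C57BL/6J LPS replicate 1, and −1.24 ± 0.26 (adjusted p = 3.31e-04) in hybrids. The call was lost in BALB/cJ without BALB/cJ LPS replicate 1 (log2 −1.36, adjusted p = 0.0902) and in C57BL/6J without C57BL/6J LPS replicate 3 (log2 −0.93, adjusted p = 0.0883).

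The other Ptgs1 gains were at intergenic peaks. The peak 48556 bp downstream (chr2:36278882-36279082) was well covered and rose by 1.10 ± 0.21 (adjusted p = 1.20e-04) in BALB/cJ, 1.05 ± 0.19 (adjusted p = 9.33e-05) in C57BL/6J and 1.18 ± 0.18 (adjusted p = 2.33e-06) in hybrids. Its levels were 79.1 to 95.3 in BALB/cJ controls and 194 and 182 after LPS, and 81.1 to 141 and 205 to 268 in C57BL/6J. The C57BL/6J value fell short of a log2 ratio of 1 without C57BL/6J control replicate 4 (log2 0.91, adjusted p = 6.65e-04). At the peak 26900 bp upstream (chr2:36203426-36203626) BALB/cJ controls held 1.32, 5.85, 8.05 and 7.37 and LPS libraries 20.04 and 36.9, with a log2 ratio of 2.21 ± 0.49 (SE, adjusted p = 6.62e-04). C57BL/6J gave 0.94 ± 0.46 (adjusted p = 0.127), which did not pass.

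No inbred peak carried the name Ptgs2, because the peak at its promoter (chr1:150099807-150100007) was assigned to Ptgs2os, an antisense transcript whose start is 33 bp from the peak's centre, while the Ptgs2 start is 124 bp away. Unstranded ATAC-seq tags cannot be split between these starts, so its values are given but not counted among the 109. It held 21.6, 19.7, 16.3 and 20.3 in A/J controls, 26.4, 25.4, 25.5 and 28.8 in BALB/cJ controls and 41.7, 43.3, 36.4 and 33.2 in C57BL/6J controls. After LPS it held 48.8 and 70.4 in BALB/cJ and 23.9, 67.1 and 41.4 in C57BL/6J. Both BALB/cJ LPS libraries were above all BALB/cJ controls, whereas the C57BL/6J groups overlapped. LPS gave a log2 ratio of 1.15 ± 0.34 (SE, adjusted p = 0.00776) in BALB/cJ, lost without BALB/cJ LPS replicate 2 (log2 0.89, adjusted p = 0.157), and 0.21 ± 0.31 (adjusted p = 0.656) in C57BL/6J, which moved from −0.19 without C57BL/6J LPS replicate 2 to 0.51 without C57BL/6J LPS replicate 1. The difference between strains in response was −0.94 ± 0.46 (adjusted p = 0.632), and hybrids gave 0.82 ± 0.20 (adjusted p = 0.00129), an adjusted p under 0.05 with a log2 ratio under 1. The 2 hybrid peaks named Ptgs2, 4530 and 25722 bp from its start, gave 1.08 ± 0.54 (adjusted p = 0.122) and −1.04 ± 0.55 (adjusted p = 0.143). Over the 17 inbred libraries and 16001 candidate peaks, the profiles most correlated with the Ptgs2 promoter belonged to Amn1, Grpel1 and Med28 (Pearson r = 0.882, 0.873 and 0.871), a description over libraries that share groups and depth.

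**Figure D2:**
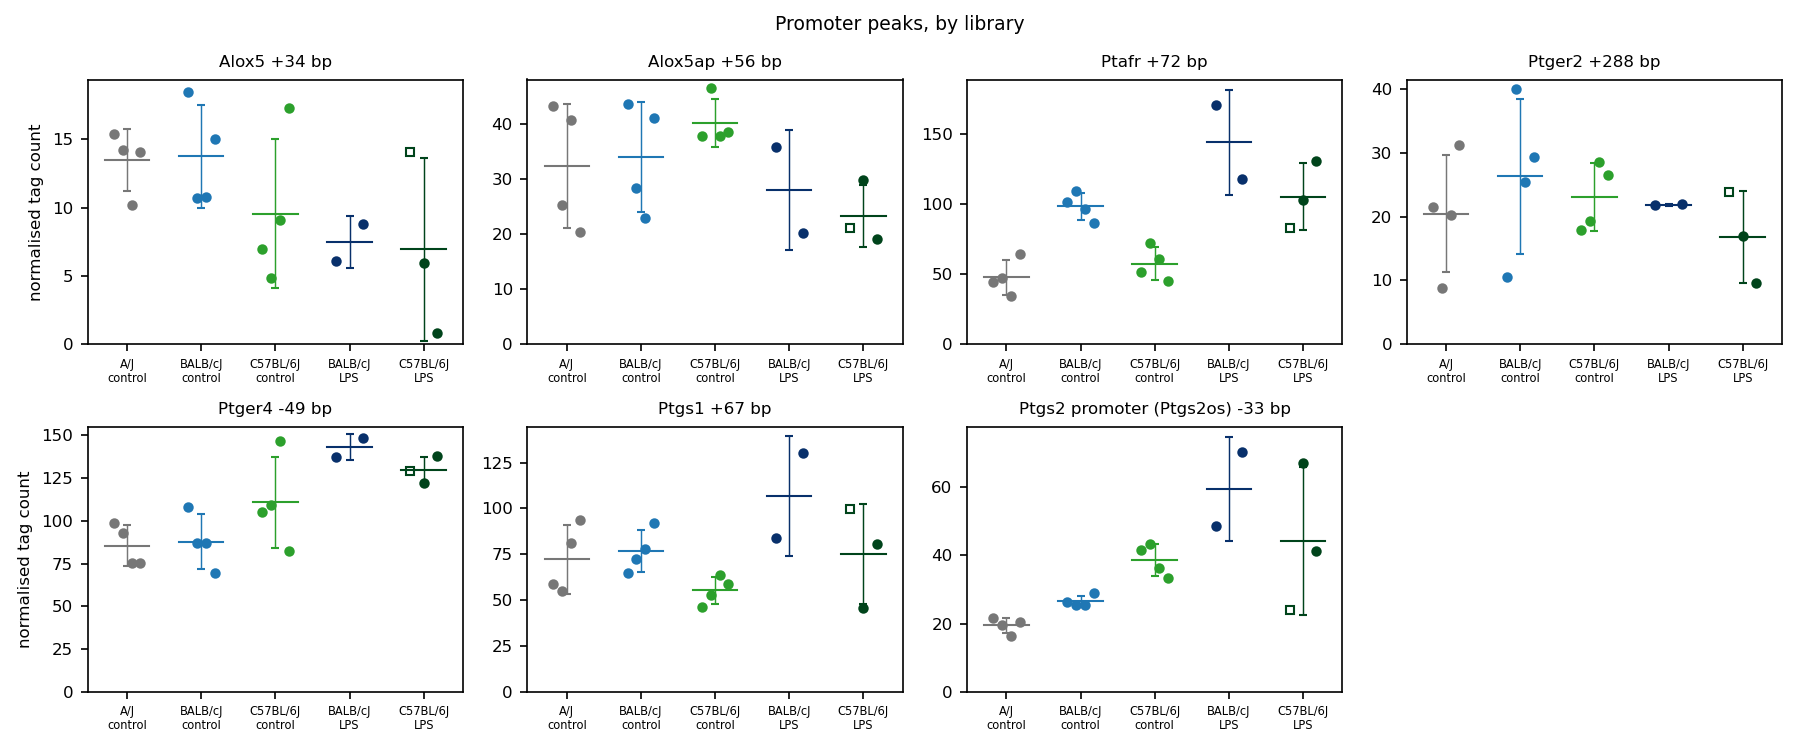
Promoter peaks of the member genes (the strongest peak within 1 kb of the start), with the normalised tag count of each inbred library (points), the group mean (line) and SD (bar). The open square is C57BL/6J LPS replicate 1. In BALB/cJ, both LPS libraries exceed all controls at the Ptgs2 promoter.

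The strongest promoter peaks of the other members were not called under LPS in the inbred strains, and Ptges and Slco2a1 had none within 1 kb of the table's start. The Ptgs1 promoter (67 bp downstream) had mean levels of 76.7 ± 11.6 (SD, n = 4) in BALB/cJ controls, 55.4 ± 7.45 (SD, n = 4) in C57BL/6J controls, 107 ± 32.9 (SD, n = 2) in BALB/cJ LPS and 75.3 ± 27.3 (SD, n = 3) in C57BL/6J LPS, and LPS ratios of 0.46 ± 0.28 (adjusted p = 0.216), 0.44 ± 0.27 (adjusted p = 0.236) and, in hybrids, 0.86 ± 0.18 (adjusted p = 2.38e-04). The Ptger4 promoter (49 bp upstream) gave 0.73 ± 0.23 (adjusted p = 0.0129), 0.23 ± 0.21 (adjusted p = 0.443) and −0.05 ± 0.15 (adjusted p = 0.830) in the same order. At the Ptger2 promoter (288 bp downstream) LPS gave −0.30 ± 0.46 (adjusted p = 0.655) in BALB/cJ and −0.49 ± 0.44 (adjusted p = 0.440) in C57BL/6J. The Alox5ap promoter (56 bp downstream) gave −0.30 ± 0.38 (adjusted p = 0.575) and −0.77 ± 0.35 (adjusted p = 0.0978), and the Alox5 promoter (34 bp downstream) −0.89 ± 0.63 (adjusted p = 0.293) and −0.58 ± 0.61 (adjusted p = 0.512).

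Ptger2, encoding the EP2 receptor, had its largest gains downstream of the gene. The peak 53284 bp downstream (chr14:45041295-45041495) held 8.12, 3.21, 2.60 and 9.31 in C57BL/6J controls and 28.1, 57.7 and 97.2 after LPS. BALB/cJ held 1.32, 8.78, 10.7 and 2.40 in controls against 91.5 and 142 after LPS. These groups did not overlap, and LPS gave a log2 ratio of 4.64 ± 0.50 (SE, adjusted p = 3.25e-08) in BALB/cJ and 3.30 ± 0.48 (adjusted p = 5.13e-06) in C57BL/6J. At 17853 bp downstream (chr14:45005864-45006064) BALB/cJ held 19.8, 30.2, 14.8 and 18.7 in controls against 112 and 129 after LPS, and C57BL/6J 17.4, 12.8, 16.9 and 13.3 in controls against 16.9, 121 and 138 after LPS. Ratios were 2.53 ± 0.43 (adjusted p = 2.33e-05) in BALB/cJ, 2.60 ± 0.42 (adjusted p = 2.46e-05) in C57BL/6J and 2.93 ± 0.21 (adjusted p = 3.45e-13) in hybrids. Its neighbour at 17200 bp, which shares tags with it, gave 4.35 ± 0.83 (adjusted p = 1.22e-04), 2.52 ± 0.76 (adjusted p = 0.0126) and 2.502 ± 0.30 (adjusted p = 2.51e-08), the C57BL/6J call being lost without C57BL/6J control replicate 1 (log2 2.29, adjusted p = 0.0504) or C57BL/6J LPS replicate 2 (log2 1.80, adjusted p = 0.157). In BALB/cJ the peak 2569 bp downstream was also called higher (1.46 ± 0.52, adjusted p = 0.0295) and the one 91905 bp downstream lower (−1.06 ± 0.41, adjusted p = 0.0460). The first call was lost without BALB/cJ control replicate 4 (log2 1.13, adjusted p = 0.115), BALB/cJ LPS replicate 1 (log2 1.17, adjusted p = 0.208) or BALB/cJ LPS replicate 2 (log2 1.74, adjusted p = 0.0501), and the second without BALB/cJ control replicate 1 (log2 −1.08, adjusted p = 0.0560), BALB/cJ control replicate 4 (log2 −0.71, adjusted p = 0.215), BALB/cJ LPS replicate 1 (log2 −0.85, adjusted p = 0.256) or BALB/cJ LPS replicate 2 (log2 −1.24, adjusted p = 0.124). Hybrids called 10 of 38 Ptger2 peaks higher and 0 lower, beside 16.3% and 10.7% of all hybrid peaks tested.

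Ptger4, encoding the EP4 receptor, gained most at a distant peak. At 91850 bp upstream (chr15:5335937-5336137) C57BL/6J held 4.06, 1.60, 3.90 and 2.66 in controls and 2.81, 24.6 and 27.9 after LPS, and BALB/cJ 5.27, 6.83, 5.37 and 2.49 in controls against 24.4 and 22.9 after LPS. LPS gave a log2 ratio of 2.40 ± 0.63 (SE, adjusted p = 0.00319) in BALB/cJ, 2.53 ± 0.63 (adjusted p = 0.00272) in C57BL/6J and 2.09 ± 0.29 (adjusted p = 5.09e-07) in hybrids. Further BALB/cJ gains were at 19101 bp upstream (1.97 ± 0.53, adjusted p = 0.00424), lost without BALB/cJ LPS replicate 1 (log2 1.67, adjusted p = 0.0679), and in intron 2 of 2 at 2234 bp (1.66 ± 0.44, adjusted p = 0.00397). C57BL/6J gave 0.996 ± 0.49 (adjusted p = 0.136) and 0.86 ± 0.38 (adjusted p = 0.0934) there. The peak 58401 bp upstream (chr15:5302488-5302688) fell in BALB/cJ (−1.25 ± 0.28, adjusted p = 8.22e-04), from 79.1, 93.6, 92.6 and 105 to 44.4 and 34.3, with −0.78 ± 0.24 (adjusted p = 0.0168) in C57BL/6J and −0.96 ± 0.20 (adjusted p = 2.83e-04) in hybrids. Hybrids called 4 of 28 Ptger4 peaks higher and 4 lower, beside 16.3% and 10.7% of all hybrid peaks tested.

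**Figure D3:**
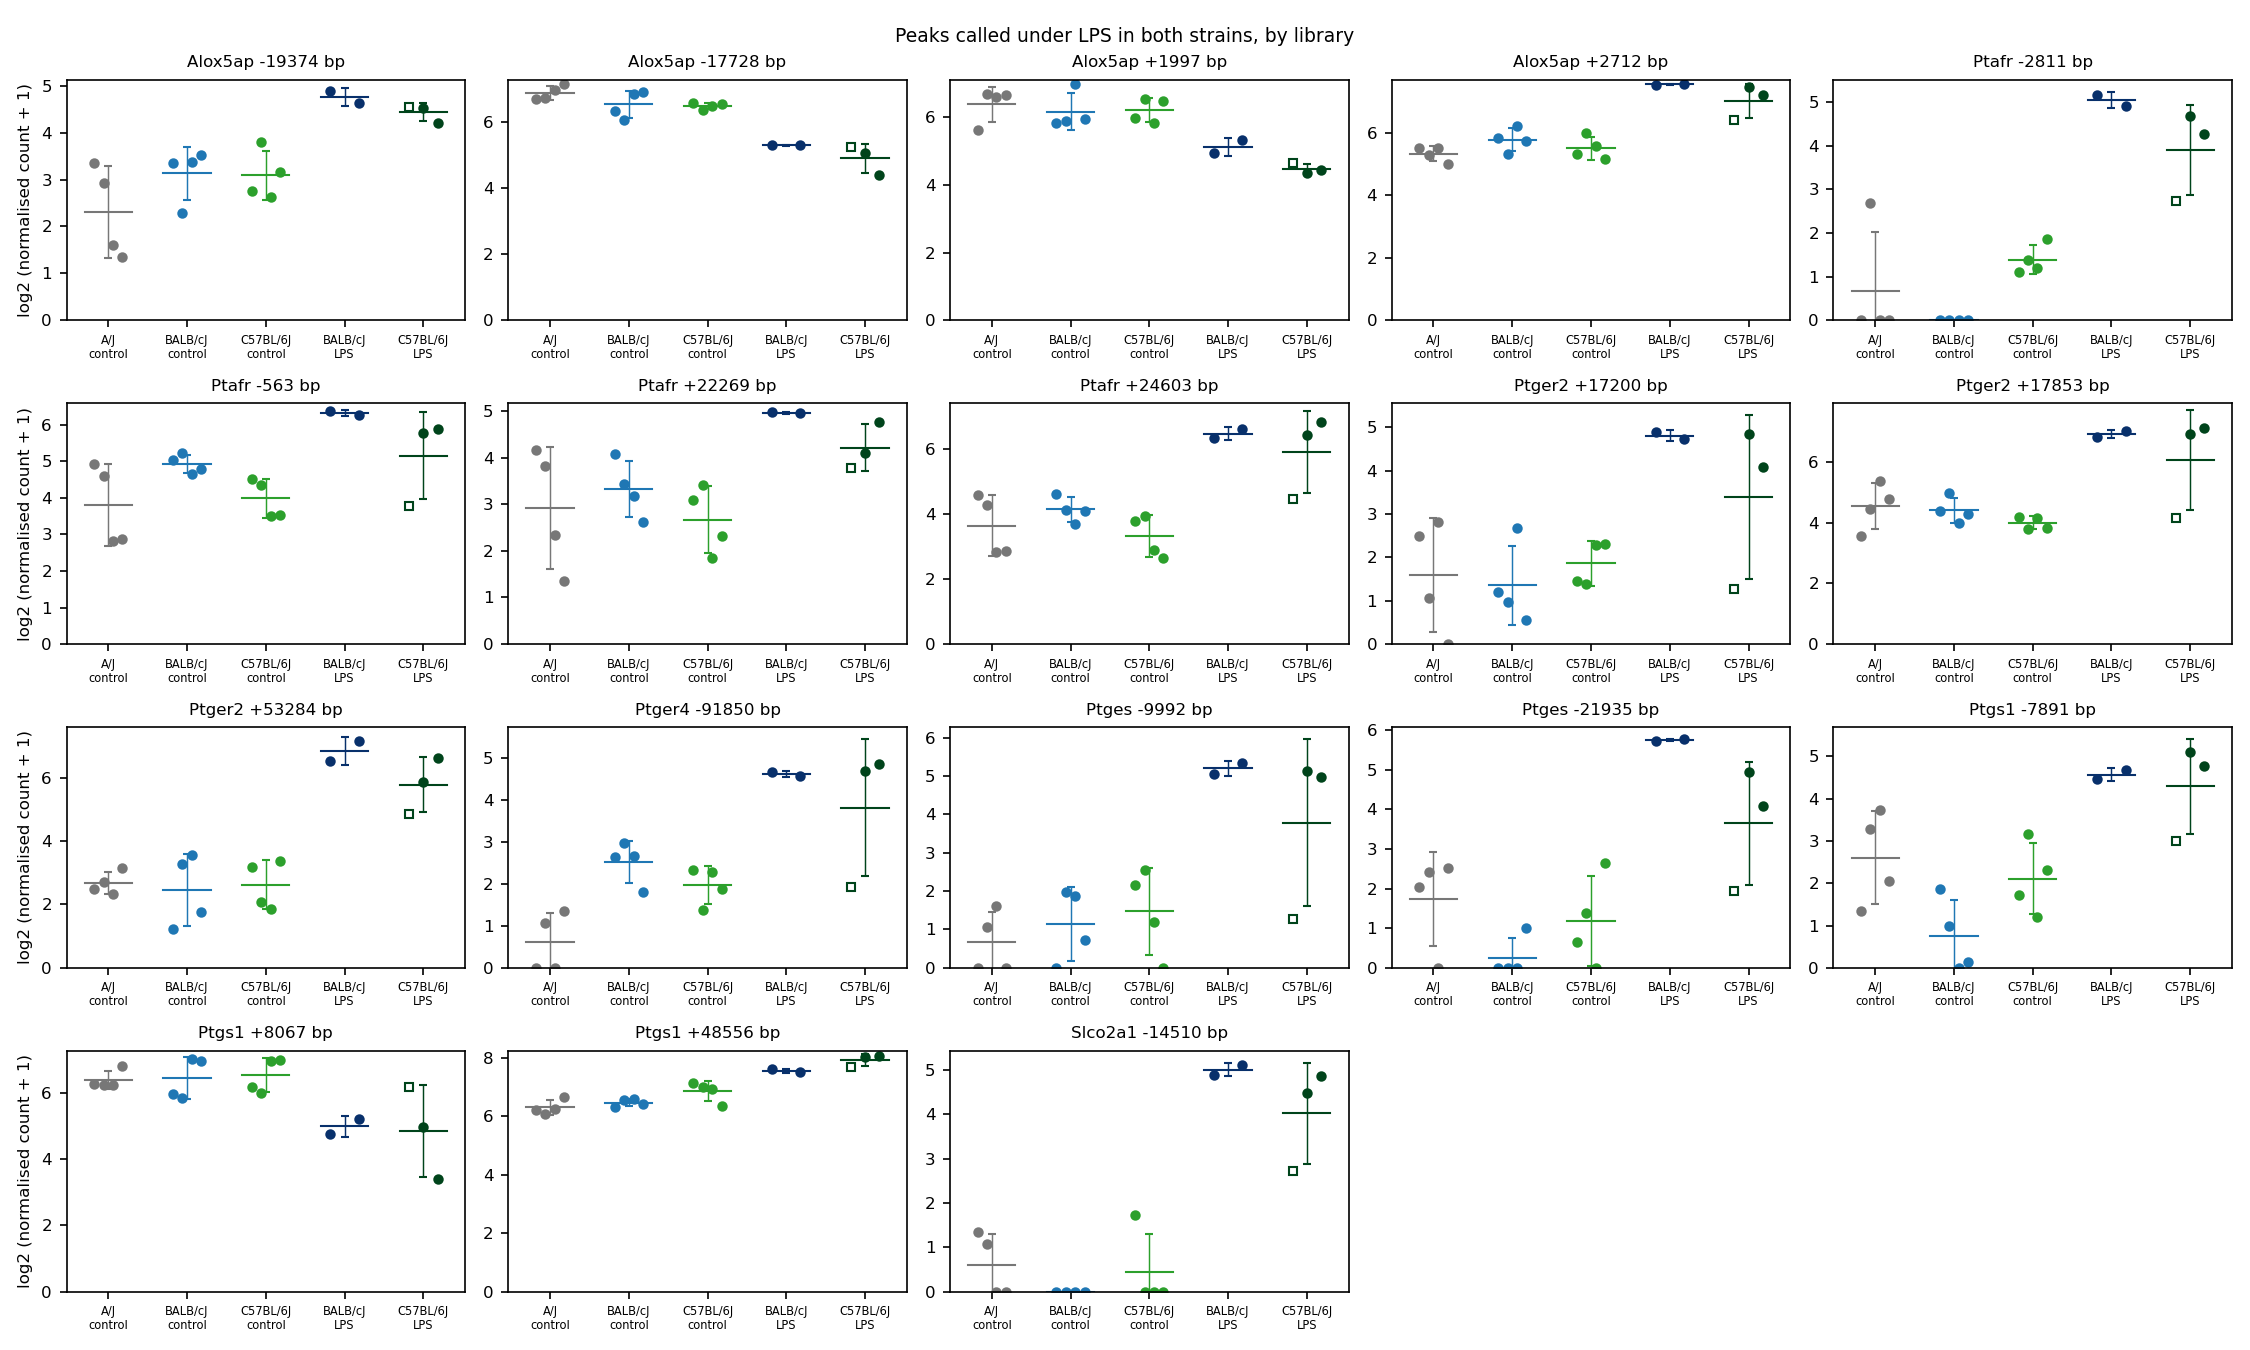
The 18 peaks called in the same direction in both strains (15 higher, 3 lower), as log2 of the normalised tag count plus 1 for each inbred library (points), with the group mean (line) and SD (bar) on that scale. The open square is C57BL/6J LPS replicate 1, which lies below the other C57BL/6J LPS libraries at the Ptges peaks.

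Ptafr, the platelet-activating factor receptor, gained accessibility on both sides of its start. The peak 2811 bp upstream (chr4:132561156-132561356) had 0 tags in the 4 BALB/cJ controls and 34.8 and 29.0 after LPS, at least 142-fold higher against the same floor. C57BL/6J held 1.16, 1.60, 1.30 and 2.66 in controls and 5.62, 24.6 and 18.3 after LPS, and A/J controls 0, 5.47, 0 and 0. LPS gave a log2 ratio of 3.32 ± 0.76 (SE, adjusted p = 0.00152) in C57BL/6J and 4.32 ± 0.40 (adjusted p = 1.44e-10) in hybrids, where controls held 0 to 10.8 and LPS libraries 77.8 to 115. It also had the smallest adjusted p of any member for a strain difference in response, at 0.190. At 24603 bp downstream (chr4:132588570-132588770) BALB/cJ held 23.7, 16.6, 12.1 and 16.1 in controls against 79.3 and 97.6 after LPS, and C57BL/6J 12.8, 14.4, 6.50 and 5.32 in controls against 21.1, 84.9 and 114 after LPS. Ratios were 2.38 ± 0.44 (adjusted p = 7.22e-05) in BALB/cJ, 2.89 ± 0.44 (adjusted p = 1.13e-05) in C57BL/6J and 2.55 ± 0.20 (adjusted p = 2.25e-12) in hybrids.

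Weaker Ptafr gains came at 22269 bp downstream, with 1.76 ± 0.54 (adjusted p = 0.0114) in BALB/cJ, 1.62 ± 0.55 (adjusted p = 0.0256) in C57BL/6J and 2.18 ± 0.26 (adjusted p = 4.18e-08) in hybrids, and at 563 bp upstream, with 1.42 ± 0.43 (adjusted p = 0.00976), 1.402 ± 0.43 (adjusted p = 0.0134) and 2.77 ± 0.20 (adjusted p = 6.09e-13). The call at 22269 bp was lost in BALB/cJ without BALB/cJ LPS replicate 1 (log2 1.77, adjusted p = 0.0528) or BALB/cJ LPS replicate 2 (log2 1.80, adjusted p = 0.0597) and in C57BL/6J without C57BL/6J control replicate 3 (log2 1.43, adjusted p = 0.0726), C57BL/6J control replicate 4 (log2 1.49, adjusted p = 0.0666) or C57BL/6J LPS replicate 3 (log2 1.29, adjusted p = 0.162). At 563 bp it was lost in BALB/cJ without BALB/cJ LPS replicate 1 (log2 1.38, adjusted p = 0.0603) and in C57BL/6J without C57BL/6J LPS replicate 2 (log2 1.23, adjusted p = 0.0725) or C57BL/6J LPS replicate 3 (log2 1.13, adjusted p = 0.104). The promoter peak 72 bp downstream, which overlaps it, gave 0.56 ± 0.25 (adjusted p = 0.0818) in BALB/cJ and 0.90 ± 0.24 (adjusted p = 0.00457) in C57BL/6J, neither past a log2 ratio of 1, and 2.08 ± 0.18 (adjusted p = 2.81e-11) in hybrids. Of the 33 hybrid Ptafr peaks tested, 14 were called higher and 1 lower, beside 16.3% and 10.7% of all hybrid peaks tested.

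Alox5ap, which presents arachidonic acid to 5-lipoxygenase, had 3 peaks called higher and 3 lower in each strain. The peak 2712 bp downstream in intron 1 of 4 (chr5:149267616-149267816) held 56.7, 39.0, 73.8 and 52.6 in BALB/cJ controls and 184 and 189 after LPS, and 38.8, 62.6, 46.8 and 34.6 in controls against 84.3, 176 and 147 after LPS in C57BL/6J. LPS gave a log2 ratio of 1.76 ± 0.27 (SE, adjusted p = 5.87e-06) in BALB/cJ, 1.61 ± 0.26 (adjusted p = 2.06e-05) in C57BL/6J and 1.84 ± 0.18 (adjusted p = 5.81e-10) in hybrids. Nearby, the peak 1997 bp downstream, whose window overlaps that of the 2712-bp peak, fell in C57BL/6J (−1.79 ± 0.33, adjusted p = 1.32e-04), from 61.5, 91.5, 55.9 and 87.8 to 23.9, 19.5 and 20.7. It also fell in BALB/cJ (−1.10 ± 0.35, adjusted p = 0.0151), but gave 0.11 ± 0.23 (adjusted p = 0.751) in hybrids. The BALB/cJ call was lost without BALB/cJ control replicate 3 (log2 −0.79, adjusted p = 0.0687), BALB/cJ LPS replicate 1 (log2 −0.89, adjusted p = 0.153) or BALB/cJ LPS replicate 2 (log2 −1.28, adjusted p = 0.0570). At 17728 bp upstream (chr5:149247176-149247376) BALB/cJ held 79.1, 65.3, 114 and 117 in controls against 38.3 and 37.8 after LPS, and C57BL/6J 92.8, 80.2, 88.4 and 91.7 in controls against 36.5, 32.3 and 19.9 after LPS. This loss had ratios of −1.32 ± 0.29 (adjusted p = 6.23e-04), −1.61 ± 0.27 (adjusted p = 3.14e-05) and, in hybrids, −1.35 ± 0.23 (adjusted p = 1.72e-05).

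Further Alox5ap peaks were called. The peak 21151 bp downstream was called in BALB/cJ (1.62 ± 0.46, adjusted p = 0.00595) without loss, with 0.56 ± 0.47 (adjusted p = 0.410) in C57BL/6J and 0.01 ± 0.21 (adjusted p = 0.976) in hybrids. At 19374 bp upstream the ratios were 1.61 ± 0.49 (adjusted p = 0.0105) in BALB/cJ and 1.43 ± 0.49 (adjusted p = 0.0266) in C57BL/6J, lost without BALB/cJ LPS replicate 1 (log2 1.498, adjusted p = 0.0752) in the first strain and without C57BL/6J control replicate 1 (log2 1.29, adjusted p = 0.0838), C57BL/6J control replicate 3 (log2 1.32, adjusted p = 0.0659) or C57BL/6J LPS replicate 2 (log2 1.397, adjusted p = 0.0751) in the second. C57BL/6J alone passed at 22394 bp upstream (1.33 ± 0.49, adjusted p = 0.0403), lost without C57BL/6J control replicate 1 (log2 1.27, adjusted p = 0.0952), C57BL/6J control replicate 2 (log2 1.36, adjusted p = 0.0633), C57BL/6J control replicate 4 (log2 1.26, adjusted p = 0.0844) or C57BL/6J LPS replicate 2 (log2 1.08, adjusted p = 0.187), and at 9783 bp downstream (−1.28 ± 0.43, adjusted p = 0.0244), lost without C57BL/6J control replicate 1 (log2 −1.10, adjusted p = 0.0931) or C57BL/6J LPS replicate 2 (log2 −0.96, adjusted p = 0.162). BALB/cJ gave 1.01 ± 0.51 (adjusted p = 0.126) and −0.19 ± 0.45 (adjusted p = 0.789) there. At 17259 bp upstream, next to the 17728-bp peak, the BALB/cJ ratio of −1.55 ± 0.48 (adjusted p = 0.0124) was lost without BALB/cJ LPS replicate 1 (log2 −1.13, adjusted p = 0.180). Hybrids called 1 of 30 Alox5ap peaks higher and 3 lower, beside 16.3% and 10.7% of all hybrid peaks tested.

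Alox5, encoding 5-lipoxygenase, had no peak called higher under LPS in the inbred strains. The intron 1 peak 1028 bp downstream passed in C57BL/6J (−1.82 ± 0.66, adjusted p = 0.0389), from 12.2, 19.3, 11.7 and 11.97 to 9.83, 3.40 and 0. This call was lost without C57BL/6J control replicate 1 (log2 −1.85, adjusted p = 0.0623), C57BL/6J control replicate 2 (log2 −1.61, adjusted p = 0.0977), C57BL/6J control replicate 3 (log2 −1.85, adjusted p = 0.0553), C57BL/6J control replicate 4 (log2 −1.87, adjusted p = 0.0521), C57BL/6J LPS replicate 2 (log2 −1.70, adjusted p = 0.130) or C57BL/6J LPS replicate 3 (log2 −1.10, adjusted p = 0.247). The intron 1 peak 5156 bp downstream fell in BALB/cJ (−1.49 ± 0.47, adjusted p = 0.0144), from 50.1, 48.8, 73.8 and 64.1 to 11.3 and 30.8, and gave −0.13 ± 0.47 (adjusted p = 0.867) in C57BL/6J, with a strain difference in response of 1.36 ± 0.66 (adjusted p = 0.627). The BALB/cJ call was lost without BALB/cJ LPS replicate 1 (log2 −0.92, adjusted p = 0.255). In hybrids, neither loss was called, with −0.897 ± 0.42 (adjusted p = 0.0942) at 1028 bp and −0.67 ± 0.27 (adjusted p = 0.0522) at 5156 bp. Of the 12 hybrid Alox5 peaks tested, 1 was called higher and 0 lower, beside 16.3% and 10.7% of all hybrid peaks tested. This gain was at the counterpart of the peak 20971 bp downstream, with 1.504 ± 0.34 (adjusted p = 7.74e-04).

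Between strains, few member peaks differed. C57BL/6J and BALB/cJ controls differed at 1 of 57 member peaks tested (7.29% of all peaks were called), A/J and BALB/cJ at 1 of 61 (4.58% of all), and A/J and C57BL/6J at 0 of 59 by edgeR and by DESeq2 (7.16% of all), with 7 at an unadjusted p under 0.05 in the last comparison. The member shares of 1.75%, 1.64% and 0% were below those of all peaks, which were not compared by a test. These tests took peaks with a mean normalised count over 16.

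The C57BL/6J and BALB/cJ difference was at the Alox5 intron 1 peak 5156 bp downstream (chr6:116455922-116456122, sequence above). C57BL/6J controls held 11.0, 16.05, 26.0 and 14.6, BALB/cJ controls 50.1, 48.8, 73.8 and 64.1 and A/J controls 35.5, 15.3, 28.5 and 54.8. No C57BL/6J control reached the lowest BALB/cJ control, while A/J overlapped both. C57BL/6J was lower with a log2 ratio of −1.85 ± 0.39 (SE, adjusted p = 0.00110), and this call was kept without each library in turn. A/J gave 1.01 ± 0.42 (adjusted p = 0.138) against C57BL/6J and −0.84 ± 0.37 (adjusted p = 0.220) against BALB/cJ, neither of which passed. After LPS, C57BL/6J held 18.3, 22.1 and 5.58 and BALB/cJ 11.3 and 30.8, values that overlap.

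The difference between A/J and BALB/cJ was at the Ptafr promoter peak 72 bp downstream (chr4:132564039-132564239). A/J controls held 44.7, 47.0, 34.6 and 64.2, BALB/cJ 102, 109, 96.6 and 86.2 and C57BL/6J 51.6, 72.2, 61.1 and 45.2. All A/J and C57BL/6J controls were below all BALB/cJ controls. A/J gave a log2 ratio of −1.03 ± 0.23 (SE, adjusted p = 0.00340) and C57BL/6J −0.78 ± 0.22 (adjusted p = 0.0182) against BALB/cJ, the latter not past a log2 ratio of 1. The A/J ratio fell short of 1 without A/J control replicate 1 (log2 −0.996, adjusted p = 0.0164), A/J control replicate 3 (log2 −0.92, adjusted p = 0.0206) or BALB/cJ control replicate 2 (log2 −0.97, adjusted p = 0.00947). Between A/J and C57BL/6J, the Ptgs2 promoter (−0.98 ± 0.32, adjusted p = 0.0476) and the Ptgs1 peak 48556 bp downstream (−0.59 ± 0.19, adjusted p = 0.0440) had an adjusted p under 0.05 with A/J lower, but log2 ratios under 1 in size.

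After LPS, C57BL/6J and BALB/cJ differed at 2 of 77 member peaks (2.60% against 5.28% of all peaks), both lower in C57BL/6J. The intronic Alox5 peak 20971 bp downstream (chr6:116440107-116440307) held 14.0, 8.49 and 4.78 in the C57BL/6J LPS libraries, against 25.3 and 36.9 in those of BALB/cJ. C57BL/6J controls held 6.38, 3.21, 11.7 and 6.65 and BALB/cJ controls 22.4, 20.5, 20.1 and 20.3, with BALB/cJ above C57BL/6J in both conditions. Only the BALB/cJ lists of reproducible peaks held this peak, so a higher level in BALB/cJ is partly fixed by that selection. LPS libraries differed by −1.83 ± 0.52 (adjusted p = 0.0257), and by −2.22 ± 0.57 (adjusted p = 0.0136) without C57BL/6J LPS replicate 1. The call was lost without C57BL/6J LPS replicate 2 (log2 −1.83, adjusted p = 0.0808), C57BL/6J LPS replicate 3 (log2 −1.503, adjusted p = 0.110) or BALB/cJ LPS replicate 1 (log2 −2.06, adjusted p = 0.0510). At the Ptafr peak 8914 bp upstream (chr4:132555053-132555253) C57BL/6J held 11.2, 17.8 and 9.56 and BALB/cJ 23.5 and 51.0, with a log2 ratio of −1.52 ± 0.47 (SE, adjusted p = 0.0493). That call was lost without C57BL/6J LPS replicate 1 (log2 −1.44, adjusted p = 0.103) or C57BL/6J LPS replicate 3 (log2 −1.32, adjusted p = 0.142).

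**Figure D4:**
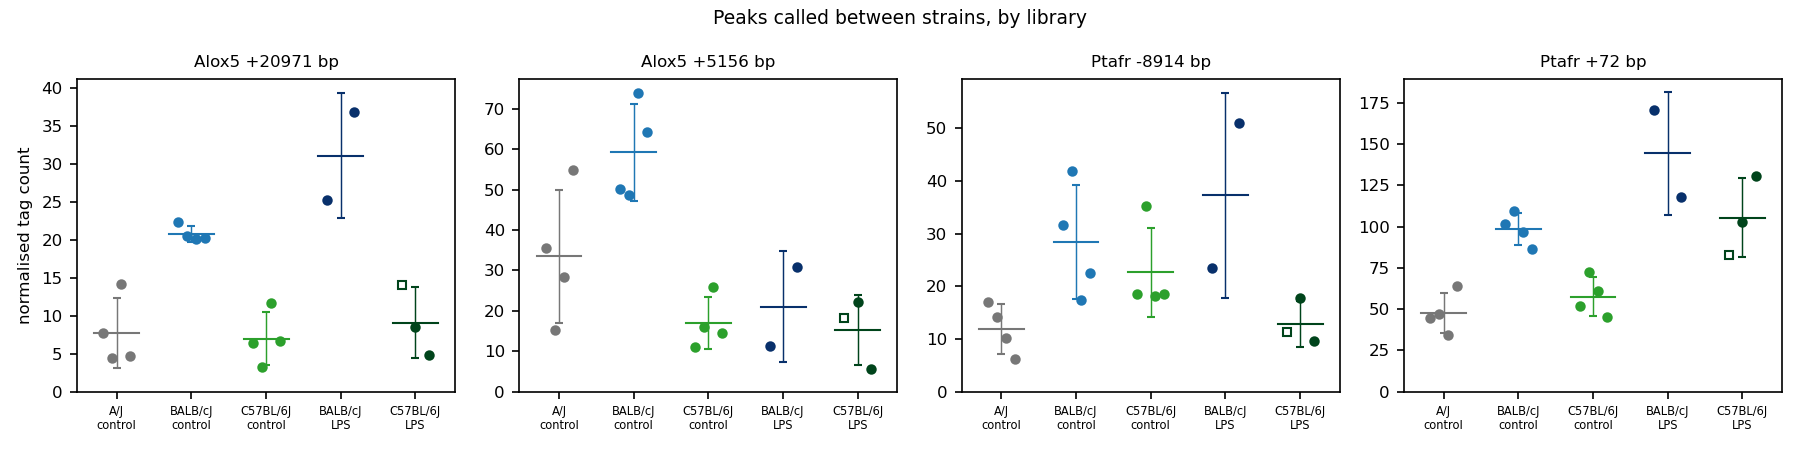
The 4 peaks called between strains, with the normalised tag count of each inbred library (points), the group mean (line) and SD (bar). The open square is C57BL/6J LPS replicate 1, and at the Alox5 peak 5156 bp downstream all 4 BALB/cJ controls lie above all 4 C57BL/6J controls.

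In the hybrids, tags mapped to the C57BL/6J genome gave 213 member peaks tested under LPS, of which 52 were called higher and 13 lower, against 16.3% and 10.7% of all peaks. Of the 90 member peaks matched between the tables, 25 were called in BALB/cJ, 24 of these had the same sign in hybrids and 18 were called the same way. The same counts over all matched peaks are not given here. Over 12760 matched peaks called higher in BALB/cJ, the hybrid LPS libraries had median log2 ratios to hybrid controls of 1.70 to 1.90. Alleles can be told apart only where a tag covers a base that differs between the parental strains. No such tag fell in 210 of the 216 member peaks (97.2%, against 79.1% of all autosomal peaks). The other 6 peaks, all of Ptafr, held 336 tags. No member peak reached the minimum for comparing alleles in controls or after LPS, so alleles were not compared at any of them. The 12 hybrid Alox5 peaks held 0 variant-spanning tags, while the median member peak held 280.5 tags in all. With variant-spanning tags of both alleles summed, 3 Ptafr peaks were tested for LPS (14.4% of all peaks were called higher and 11.8% lower). Those 24590 and 25294 bp downstream rose by 1.61 ± 0.61 (adjusted p = 0.0327) and 2.86 ± 1.12 (adjusted p = 0.0382). At 24590 bp the C57BL/6J allele had 2, 0, 0 and 1 tags in controls and 20, 18, 17, 16 and 14 after LPS, and the BALB/cJ allele 1, 11, 0 and 12 and 8, 10, 11, 21 and 9. The allele difference in response was 3.18 ± 1.13 (adjusted p = 0.548), with 0 of all peaks called (0%) and 1 member peak at an unadjusted p under 0.05.

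AP-1 matches were in 13 of the 23 member peaks called higher under LPS in either strain (56.5%), beside 41.9% of all 17772 such peaks, and in 0 of the 9 member peaks called lower, beside 3.12% of all 13407. C/EBP matches were in 6 of the 23 and 0 of the 9, beside 14.0% and 9.17% of all peaks called higher and lower. PU.1 matches were in 2 and 2 (6.05% and 7.58% of all), CRE in 2 and 1 (10.6% and 15.7%), IRF in 2 and 0 (9.14% and 7.30%), and κB in 1 and 0 (5.32% and 5.04%). Of the gained peaks printed above, those of Ptgs1, Slco2a1, Ptger2, Alox5ap and Ptafr hold the AP-1 letters and that of Ptges does not.

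A list of 43 other genes of these pathways was also counted. Under LPS, 33 of their 321 peaks tested were called higher and 21 lower in C57BL/6J (10.3% and 6.54%, beside 12.3% and 8.07% of all peaks), and 56 and 28 of 323 in BALB/cJ (17.3% and 8.67%, beside 16.2% and 11.3%). The named peaks with the largest ratios were at Abcc4, which exports prostaglandin E2, 1820 bp upstream, with 4.87 ± 0.62 (adjusted p = 4.60e-07) in BALB/cJ and 4.68 ± 0.60 (adjusted p = 8.25e-07) in C57BL/6J. Pla2g4a, the cytosolic phospholipase that releases arachidonic acid, followed at 1725 bp upstream with 4.43 ± 0.70 (adjusted p = 1.03e-05) and 4.07 ± 0.84 (adjusted p = 4.68e-04). At Ptgis, the prostacyclin synthase, the peak 25958 bp upstream gave 4.03 ± 0.72 (adjusted p = 6.26e-05) and 3.11 ± 0.69 (adjusted p = 0.00115). Between strains, 6 of 173 peaks were higher and 3 lower in C57BL/6J than BALB/cJ controls, 2 and 7 of 168 in A/J than BALB/cJ, 5 and 3 of 180 in A/J than C57BL/6J, and 3 and 2 of 199 in C57BL/6J than BALB/cJ after LPS, in comparisons that called 7.29%, 4.58%, 7.16% and 5.28% of all peaks. The Pla2g4a peak 96104 bp downstream had mean levels of 49.5 ± 9.22 (SD, n = 4) in C57BL/6J controls, 12.1 ± 6.99 (SD, n = 4) in BALB/cJ controls and 1.71 ± 1.32 (SD, n = 4) in A/J controls. The strain difference in LPS response was called at 0 of 328 of these peaks.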

How the data were processed

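ATAC-seq libraries were made from sorted Kupffer cells, with 17 inbred and 9 CB6F1/J libraries. According to its methods, reads were cut by the authors to 30 bp, mapped with Bowtie2 to mm10 or to A/J and BALB/cJ genomes built from it, shifted positions back to mm10, and built HOMER tag directories. Versions are not given in the sources used here. The deposited count values are raw tags per 1000-bp window centred on merged reproducible peaks, whole in the LPS columns. In the inbred control and hybrid allele columns the deposited values are estimated counts in steps of 0.5 tags (39.7 to 49.7% and 4.55 to 7.41% not whole), and 0.5 was rounded up. The authors' lists of reproducible peaks carry an IDR score, and a member was listed where a peak covered at least 50% of it.

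Mitochondrial and unplaced peaks were left out (96238 inbred and 213225 hybrid peaks used). The C57BL/6J control columns held 0 mitochondrial tags. edgeR 4.0.16 (R 4.3.3, limma 3.58.1, TMM scaling, quasi-likelihood test, Benjamini-Hochberg adjustment over all tested peaks) was fitted once to the 17 inbred libraries with a mean per group, and to the hybrid alleles with a term per animal. Peaks needed a mean normalised count over 16 in strain and allele comparisons and over 4 in LPS comparisons and interactions. Hybrid LPS responses used all tags on the C57BL/6J genome, or summed variant-spanning tags (0.263 to 0.573 M tags per allele and animal). An inbred and a hybrid peak were taken as the same if their overlap was 50% or more of both. Python 3.11.15 with pandas 2.3.3, numpy 2.4.6 and scipy 1.17.1 handled tables and sequences. Gene positions came from GENCODE M21, and each level of a cell type list is the sum of its promoter peaks. Per-library peak files were not used.

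Named peaks were each gene's strongest peak within 1 kb of its start and every called peak, the 3 largest ratios per gene and comparison in full. The fits were tested on simulated counts. Alternatives were DESeq2 1.42.0, other scalings and minimums, no rounding, overlapping windows counted once, only the compared libraries, a replicate block, and each library left out. The members, lists and rules were chosen with earlier results of these data known.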

Additional observations from a re-analysis of the deposited data

Results flagged for a closer look

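In 12 of 123 tests of a group of 4 to 10 libraries at a named peak, 1 library lay apart from the others by Dixon's criterion, which chance alone meets in about 1 of 20 groups. Where all other libraries of a group held 0, any tag meets the criterion, so that rate does not apply. Values are normalised counts, followed by the range of the other libraries of the group. C57BL/6J control replicate 2 was high at 4 peaks: 17.7 against 6.50 to 7.54 at 19101 bp upstream of Ptger4, 35.3 against 18.2 to 18.6 at 8914 bp upstream of Ptafr, 46.5 against 37.7 to 38.6 at the Alox5ap promoter, and 19.3 against 11.7 to 12.2 at 1028 bp downstream of Alox5. C57BL/6J control replicate 1 held 2.32 at the Slco2a1 peak 14510 bp upstream, where the others held 0.

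Among A/J controls, replicate 2 held 2.19 at the Ptges peak 24157 bp upstream and 5.47 at the Ptafr peak 2811 bp upstream, where the others held 0. A/J control replicate 4 held 111 at the Ptgs1 peak 8067 bp downstream, against 74.4 to 75.5. At the Alox5ap peak 1997 bp downstream A/J control replicate 1 held 47.8, against 95.6 to 101, and BALB/cJ control replicate 3 held 125, against 55.4 to 61.0.

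BALB/cJ control replicate 4, the library of 47.2 M tags, held 1.01 at the Ptges peak 21935 bp upstream, where the others held 0. At the Alox5 peak 20971 bp downstream BALB/cJ control replicate 1 held 22.4, against 20.1 to 20.5.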

How the results depend on the processing

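Counts of member peaks called under LPS in both strains stayed within 1.5 times the reported counts under every alternative. Leaving out a library gave 24 to 29 in BALB/cJ (28 with all libraries) and 17 to 32 in C57BL/6J (22 with all, 32 without LPS replicate 1). The strain difference in response stayed at 0 throughout. C57BL/6J and BALB/cJ controls differed at 4 peaks with no minimum count and at 2 with only the compared libraries fitted (1 otherwise). A/J and BALB/cJ controls differed at 2 with DESeq2, 3 with no minimum and 2 with a replicate block (1 otherwise), and at 0 to 2 with a library left out (0 without A/J replicate 1 or 3, 2 without A/J replicate 4). A/J and C57BL/6J controls differed at 0 to 1 (1 without A/J replicate 2, 0 otherwise). For C57BL/6J against BALB/cJ after LPS (2 peaks), a minimum of 2 times the main one and fitting only the compared libraries gave 0, while no rounding, counting overlapping windows once and a replicate block gave 1, and leaving out a library 0 to 3 (0 without C57BL/6J LPS replicate 3 or BALB/cJ LPS replicate 2, 1 without C57BL/6J LPS replicate 1). The hybrid LPS count from variant-spanning tags (2) became 65 with all tags, 1 with a minimum of 2 times or no minimum or a replicate block, and 0 to 2 with an animal left out (0 without LPS replicate 1, 2 or 4 or control replicate 3, 1 without LPS replicate 3 or control replicate 1, 2 or 4). The cause of these moves was not tested, beyond the larger number of peaks tested with all tags (213 against 3) or, between strains, with no minimum (109 against 57 and 61). No called ratio changed sign. Of the ratios that were not called, 13 changed sign under an alternative, as follows in log2 with the range over left-out libraries. Between A/J and BALB/cJ, the Ptger4 promoter (−0.0071) ran from −0.13 to 0.10, with 0.014 by DESeq2, 0.0020 with its size factors and 0.0039 with overlapping windows counted once, the Ptgs1 promoter (−0.12) from −0.28 to 0.012 and the Alox5ap promoter (−0.11) from −0.29 to 0.055. The Ptger2 promoter between A/J and C57BL/6J (−0.19) ran from −0.47 to 0.13. For the Alox5ap promoter, C57BL/6J against BALB/cJ after LPS (−0.26) ran from −0.58 to 0.24 and the BALB/cJ LPS ratio (−0.30) from −0.74 to 0.071. The C57BL/6J LPS ratio ran from −0.19 to 0.51 at the Ptgs2 promoter (0.21) and from −1.45 to 0.046 at the Alox5 promoter (−0.58), and the hybrid ratio at the Ptafr peak 29479 bp downstream (−0.16) from −1.57 to 0.17. Strain differences in response ran from −0.45 to 0.15 at the Ptger2 promoter (−0.19), from −0.28 to 0.36 at that of Ptgs1 (−0.022, and 0.015 with only the compared libraries), from −0.78 to 0.036 at that of Alox5ap (−0.47) and from −0.56 to 0.94 at that of Alox5 (0.30).

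Deviations of same-numbered libraries from their group means correlated at 0.202 to 0.375 between controls numbered 2 or 4, 0.0538 to 0.118 between controls numbered 1 or 3, and −0.0974 to 0.131 where a pair held an LPS library. Of 12 control libraries, 7 correlated best with their own number. Not every pair was over 0.1, and the labels name no shared animal or batch, so the numbers were not taken as pairs. The replicate block gave 23 and 28 LPS calls in C57BL/6J and BALB/cJ. Scaling to total counts raised the median of all peaks by 0.11 in C57BL/6J and 0.12 in BALB/cJ. The share of the member calls that were higher then moved from 77.3% to 84% and from 75% to 82.8%. With 2 BALB/cJ LPS libraries and 2.08 to 7.54 M tags in most libraries, peaks of few tags have wide errors.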
